A study of Rattus norvegicus with 2 samples.

Results

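The miR-181 family was measured in the nucleus accumbens (NAc), a part of the ventral striatum that receives dopamine input and takes part in reward, of rats given vehicle or alcohol. The 4 guide strands rno-miR-181a, rno-miR-181b, rno-miR-181c and rno-miR-181d, written below without the prefix for rat, were taken by probe name, and the names ending in an asterisk, which mark passenger strands, were left out. They are 4 of the 349 rat miRNA probes on the arrays. The animals were adult male Sprague-Dawley rats weighing 150-180 g, and 18 of them were divided between 2 treatments. The vehicle group received 500 ul of saline and the alcohol group received alcohol at 1 g/kg, both by the intraperitoneal route (ip) 2 times a day (bid), and the NAc was taken 7 days later. The tissue held core and shell of the NAc together. The deposited data hold 1 array for each group, and the text read here does not state how RNA of several rats was combined. Each probe had 9 repeat spots on each array, so each SD below is over spots of the same RNA. With a single array on each side, no difference could be tested across rats, and treatment and array cannot be told apart. In tissue, fewer cells that hold a miRNA and less of it in each cell cannot be told apart either.

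miRNAs of the miR-181 family are conserved among vertebrates and are made from the 5′ arm of hairpins that lie in pairs, an a hairpin beside a b hairpin and the c hairpin beside the d hairpin. The guide strand is loaded into an Argonaute protein and pairs with messenger RNAs mainly through its seed, bases 2 to 8, which lowers their translation and stability. In the striatum miR-181a is known as a neuronal miRNA that responds to dopamine signalling and to drugs of abuse and that lowers an AMPA receptor subunit at synapses. The family is also known in developing lymphocytes.

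The mature strands are shown because the members share a seed, given in capitals, and differ only in the bases after it. Each target listed for a probe on the array was identical to the RefSeq mature sequence of the same name (GRCr8), for 4 of the 4 members.
miR-181a: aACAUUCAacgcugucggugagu
miR-181b: aACAUUCAuugcugucggugggu
miR-181c: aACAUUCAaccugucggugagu
miR-181d: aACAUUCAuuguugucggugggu
No probe on the array outside these 4 had a target with this seed. Counted from base 1 at the 5′ end, and with the base of miR-181b first, miR-181d differed from miR-181b by C12U alone. miR-181c differed from miR-181a by the loss of the base G11 alone (G11del). miR-181a and miR-181b, which lie side by side in the genome, differed by the 3 changes A9U, C10U and A21G, with the base of miR-181a first, and miR-181c and miR-181d differed by 5 edits. The members nearest in sequence are thus a with c and b with d, while the members nearest in the genome are a with b and c with d.

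In the RefSeq table of GRCr8, miR-181a is made from the 2 genes Mir181a-1 on chromosome 13 and Mir181a2 on chromosome 3. The target of the miR-181b probe equals the mature strand listed for Mir181b1, the neighbour of Mir181a-1, and also lies whole within the hairpin of Mir181b2, the neighbour of Mir181a2. Neither probe can therefore tell its 2 loci apart. Mir181a2 and Mir181b2 lie within the span of the protein-coding gene Nr6a1 and of a lncRNA, and Mir181a-1 and Mir181b1 within the span of another lncRNA. Mir181c and Mir181d each have 1 locus, on chromosome 19, with Mir23a, Mir27a and Mir24-2 within 100000 bases. All 6 hairpins are on the plus strand of that assembly. Positions are left out because no genome build is named in the array files.

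On the arrays, miR-181a and miR-181b gave bright spots and miR-181c and miR-181d gave dim ones. The density of the miR-181a spots, the mean pixel brightness before any background was removed, ran from 4076 to 5536 with a median of 5101 on the vehicle array. On the alcohol array it ran from 5627 to 6900 with a median of 6610. Each alcohol spot of miR-181a was thus brighter than each vehicle spot before the arrays were scaled to each other. For miR-181b the vehicle spots ran from 1720 to 3201 (median 2203) and the alcohol spots from 2567 to 2972 (median 2747). These ranges overlapped, and the vehicle spots were far more spread, with a coefficient of variation of 22.0% against 4.86% on the alcohol array. For miR-181c the vehicle spots ran from 253 to 385 (median 291) and the alcohol spots from 420 to 732 (median 550). For miR-181d the vehicle spots ran from 302 to 362 (median 326) and the alcohol spots from 719 to 881 (median 824). Neither miR-181c nor miR-181d overlapped between the arrays. In raw density 3 of the 4 members were thus apart, and so were 66% of the 150 miRNAs detected on both arrays, so that 3 is the count of members nearest to the background.

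**Figure D1:**
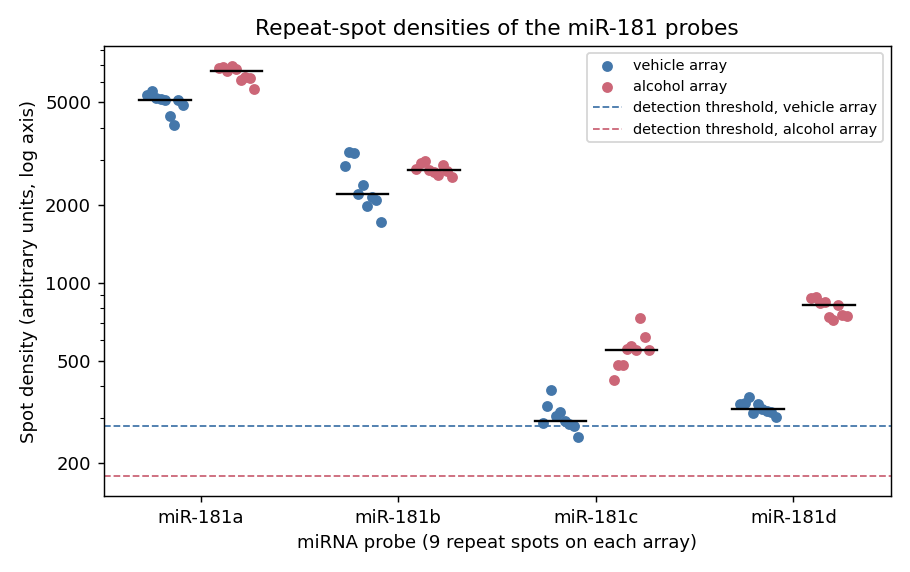
Density of the 9 repeat spots of each miR-181 probe on the vehicle array and the alcohol array, on a log axis, with the median of the spots as a black bar and the detection threshold of each array as a dashed line. The vehicle spots of miR-181c and miR-181d lie at 253 to 385 and 302 to 362, close to the vehicle threshold of 278, and their alcohol spots lie well above the alcohol threshold of 179.

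A spot was called detected when it exceeded the median of 88 mismatched control spots of its array by 3 scaled median absolute deviations, which put the threshold at 278 for vehicle and 179 for alcohol. At least 5 of 9 such spots were asked for. miR-181a, miR-181b and miR-181d passed with all 9 spots on both arrays, and miR-181c with 8 spots in vehicle and 9 in alcohol. By this rule 151 of the 349 miRNAs were detected in vehicle, 196 in alcohol and 150 on both. The arrays differed in brightness. The empty spots had a median density of 202 in vehicle and 141 in alcohol, while the 150 miRNAs detected on both had a median of 936 and 1927. Raw ratios therefore carry a difference between the arrays that changed with the signal.

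After normexp background correction, averaging of log2 spot values and cyclic loess between the arrays over the 349 probes, the normalized signal of miR-181a was 5402 in vehicle and 5710 in alcohol. It ranked 34 and 36 in brightness among the 349 probes. miR-181b was at 2820 and 2137, with ranks 54 and 66. miR-181d was at 293 and 505, with ranks 130 and 98, and miR-181c at 242 and 342, with ranks 137 and 124. The order of brightness was a, b, d, c on both arrays. The spot densities of c and d overlapped on both arrays, so this last step of the order was within their spread, and those of a, of b and of the dim pair did not overlap. Brightness depends on the probe as well as on the RNA, so this is no order of abundance.

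After cyclic loess miR-181d was called higher and miR-181b lower on the alcohol array, and miR-181a and miR-181c were not called. The direction of miR-181b turned under 3 other scalings, given below. A call needed detection on either array, a brighter normalized signal of 400 or more, and a 1.3-fold difference. The log2 ratio of alcohol over vehicle of miR-181d was 0.79 ± 0.14 (SD over 9 spots), or 1.72-fold, and after normalization its spots did not overlap between the arrays. Its ratio was above 0 at 9 of 9 spot positions, between 0.57 and 0.97. That of miR-181b was -0.40 ± 0.27 (SD over 9 spots), which is 75.8% of vehicle, and below 0 at all 9 spot positions. The change of miR-181b, 1.32-fold, lay just past the threshold, and its normalized spots overlapped between the arrays, from 2006 to 3868 on the vehicle array and from 1987 to 2309 on the alcohol array. The log2 ratio of miR-181c was 0.50 ± 0.46 (SD over 9 spots), which is 1.41-fold, with 8 of 9 positions above 0. Its brighter signal of 342 did not reach the minimum of 400. For miR-181a the log2 ratio stood at 0.080 ± 0.13 (SD over 9 spots), within the spread of its spots, with 7 of 9 positions above 0. Over all 349 probes 9.46% were called higher and 7.45% lower, against 1 of 4 members in each direction. Since 1 of 4 is the smallest share above 0 that the family can have, nothing about the family can be read from these counts. The median log2 ratio was 0.29 over the 4 members and -0.070 over the 150 miRNAs detected on both arrays. Normalized spot ranges did not overlap for 34.7% of these 150 and for 1 of the 4 members.

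Within the genomic pairs, the log2 ratio of miR-181a exceeded that of miR-181b by 0.48 ± 0.30 (SD from the spots of both probes). Under the 5 settings that differ only by a constant between the arrays this excess was 0.14, smaller than its spread. miR-181a and miR-181b each have a locus on chromosome 3 and another on chromosome 13, side by side. After cyclic loess their ratios stood on opposite sides of 0, that of miR-181a within its spread. miR-181c lay below miR-181d by 0.29 ± 0.48, a difference smaller than its spread. The mean ratio of the c and d pair exceeded that of the a and b pair by 0.80 ± 0.28. This gap between the pairs was above 0 under each of 18 other ways of processing, from 0.58 to 1.35. Of these 18, 5 differ only by a constant between the arrays and so share 1 value, 1.32. These 5 leave in place the change of the array ratio with signal, and miR-181c and miR-181d were the dimmer probes. Cyclic loess lowered the ratios of miR-181c and miR-181d by 0.95 and 1.06, against 0.32 and 0.66 for miR-181a and miR-181b. Part of the 1.32 is thus a difference that went with brightness.

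**Figure D2:**
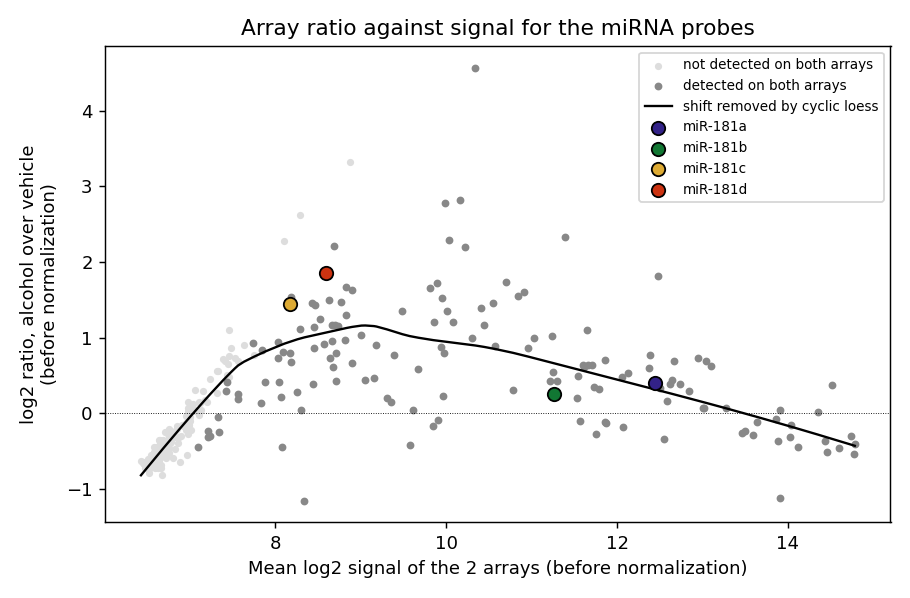
Log2 ratio of alcohol over vehicle before normalization between the arrays, against the mean log2 signal, for the 349 miRNA probes, with the miR-181 members as large points and the shift that cyclic loess removed as a line. All 4 members lie above 0 before normalization; miR-181c and miR-181d stay above the line, miR-181a lies close to it and miR-181b lies below it.

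The size of each ratio, and the direction of miR-181b and miR-181a, depended on how the arrays were scaled. Before any normalization between the arrays all 4 members were higher on the alcohol array, with log2 ratios of 0.40 for miR-181a, 0.26 for miR-181b, 1.44 for miR-181c and 1.85 for miR-181d. On that scale the 150 miRNAs detected in both groups had a median of 0.57, so miR-181a and miR-181b were below it and the other two above. Cyclic loess lowered the ratios by 0.32, 0.66, 0.95 and 1.06 in the order a to d. Scaling to 6 probes for 5S rRNA put miR-181b at 0.56, and scaling to 5 calibration spike probes at 0.27. In the authors' own processed values miR-181b went from 2734 to 1882, a log2 ratio of -0.54, and miR-181a from 5218 to 5017, a log2 ratio of -0.057. miR-181c went from 120 to 240 and miR-181d from 199 to 375 in those values, log2 ratios of 0.99 and 0.91. By rank, which a constant scaling cannot move, miR-181d had the 11th highest ratio of the 150 miRNAs after cyclic loess and the 8th highest before it. miR-181c ranked 25 and 23, miR-181a 61 and 89, and miR-181b 113 and 101. miR-181c and miR-181d were above 0 under each of the 18 settings, miR-181b was below 0 under 15 and miR-181a above 0 under 12.

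The number of members called moved with the scaling, together with the number of all probes called. Without normalization 3 members were called higher and 0 lower, where 24.4% and 2.29% of the 349 probes were, and with calibration spike scaling the same counts and shares were found. With 5S rRNA scaling 4 members were higher and 0 lower, against 28.7% and 0.573%. Median scaling gave 2 lower against 22.6%, and 75th percentile scaling 2 lower against 17.2%. Under both, miR-181d was still called higher, where 4.87% of probes were higher with median scaling and 8.02% with 75th percentile scaling. The call of miR-181d was lost with the authors' processed values (7.16% of probes higher), with a mismatched control baseline (7.74%) and at 2-fold (3.15%). The call of miR-181b was lost without background correction, where 6.88% of probes were lower, with the median of spots (7.45%), with the last 4 spots (7.16%), and at 1.5-fold (6.02%) and 2-fold (1.43%). Without the signal minimum miR-181c was called higher too, which made 2 members against 10.3% of probes.

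**Figure D3:**
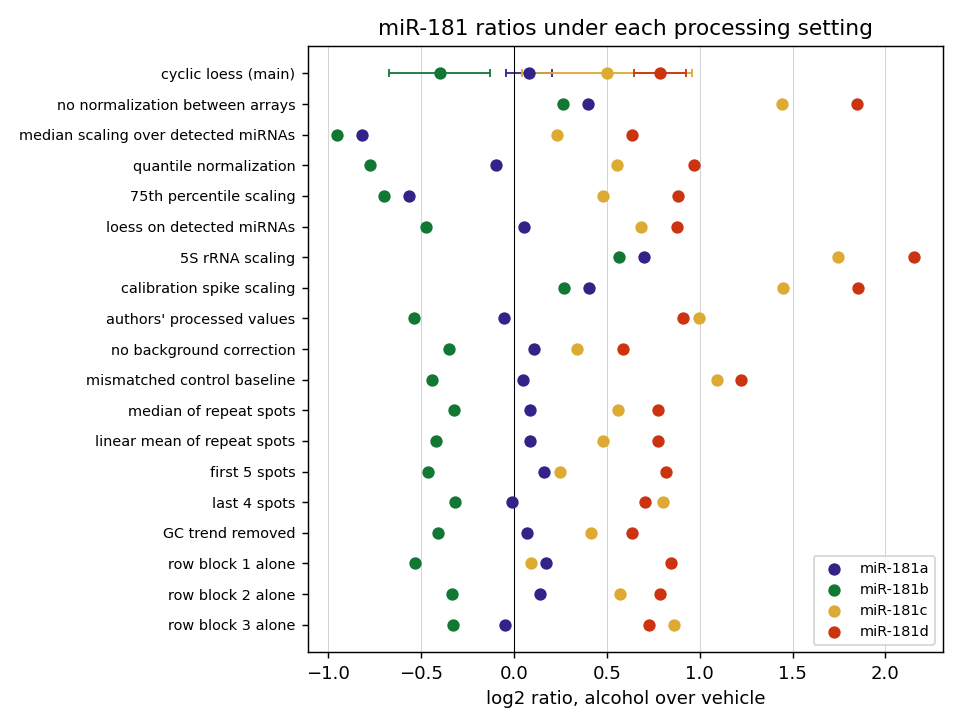
Log2 ratio of alcohol over vehicle of each miR-181 member under the main processing, with the SD over 9 spots as error bars, and under 18 other settings. miR-181b is the lowest member in each row and is above 0 only without normalization, with 5S rRNA scaling and with calibration spike scaling, at 0.26, 0.56 and 0.27.

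The spots of each probe lie in 3 row blocks of 3 spots, and the blocks did not give the same ratio for each member. On the vehicle array miR-181b faded from a mean density of 3075 in the first block to 2196 in the second and 1991 in the third, while on the alcohol array it stood at 2880, 2685 and 2712. Before normalization its log2 ratio was therefore -0.067 in the first block and 0.51 in the third. The fading was not particular to it, since the median log2 difference between the third and the first block was -0.25 over the 150 miRNAs in vehicle and -0.0030 in alcohol. The value of miR-181b on the vehicle array, -0.67, ranked 21 from the lowest. With loess within each block miR-181b was at -0.53, -0.33 and -0.33. It passed 1.3-fold in the first block alone, while 6.3% of probes were called lower in the second and 8.02% in the third. miR-181c went the opposite way on the 2 arrays. Its mean density fell over the blocks from 335 to 303 and 272 on the vehicle array and grew from 461 to 556 and 632 on the alcohol array. The log2 difference between the third and the first block of miR-181c on the alcohol array, 0.51, was the highest of the 150 miRNAs. Within blocks its ratio was 0.094, 0.57 and 0.86, so its size rested on where on the array it was read. miR-181d, whose spots lie 1 row from those of miR-181c, was at 0.85, 0.78 and 0.73 and miR-181a at 0.17, 0.14 and -0.051. The row blocks were looked at after the values had been seen.

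**Figure D4:**
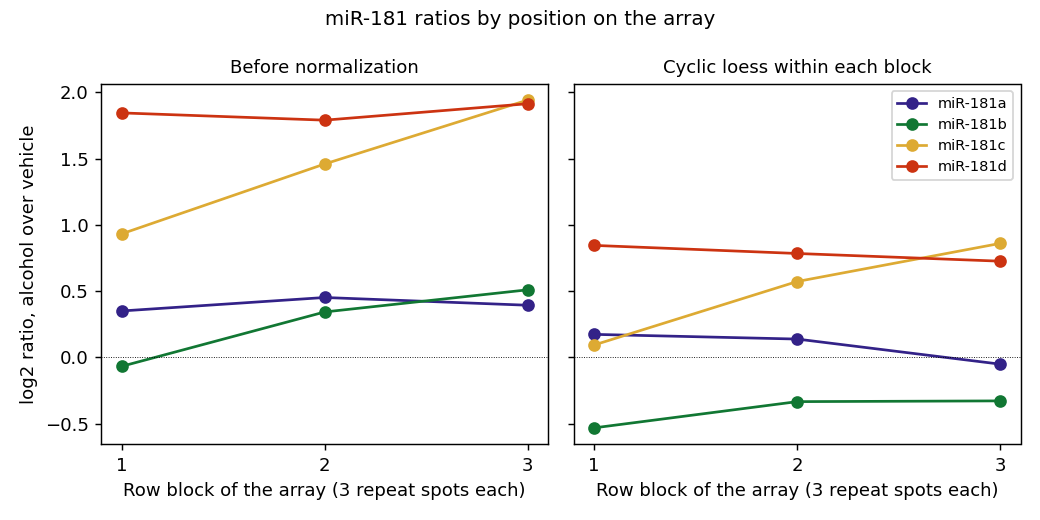
Log2 ratio of alcohol over vehicle of each miR-181 member in the 3 row blocks of the array, with 3 repeat spots in each, before normalization (left) and with cyclic loess within the block (right). miR-181d keeps a ratio of 0.73 to 0.85 on the right, while miR-181c goes from 0.094 to 0.86.

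Each dim member differs from a bright member by 1 edit, so the dim probe was also set beside its bright relative on the same array. After subtraction of the median mismatched control density, miR-181d held 4.02% of the miR-181b signal in vehicle and 25.1% in alcohol. miR-181c held 1.31% of the miR-181a signal in vehicle and 6.42% in alcohol. These shares were taken before normalization between the arrays. The mean vehicle densities of miR-181c and miR-181d, 303 and 329, lay close to the subtracted 241, so their vehicle shares rest on a small remainder. After cyclic loess the difference in log2 ratio was 1.19 ± 0.31 for miR-181d over miR-181b and 0.42 ± 0.48 for miR-181c over miR-181a (SD from the spots of both probes). Before normalization these differences were 1.59 and 1.05. Among the mismatched control probes of 15 pairs whose matched probe was above both thresholds, 2 were themselves above the threshold on both arrays, and both held a larger share in alcohol. The probe Ctr09-3M10 held 0.138% of its matched signal in vehicle and 7.78% in alcohol, and PUC2MM held 46.5% and 77.0%. Another 4 were above the threshold in alcohol alone and 9 on neither array, so that the direction of their shares was not read. The part of binding by near relatives in the ratios of miR-181c and miR-181d was not tested.

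The passenger strand miR-181a* was the other product of the family on the array, and its listed target is the 3′ strand of Mir181a-1 alone. It is shown beside the 3′ strand of Mir181a2, which had no probe, because the pair tells the 2 loci apart, which the guide strand cannot do.
miR-181a*: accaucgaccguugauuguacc
rno-miR-181a-2-3p: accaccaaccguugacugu
miR-181a* exceeded the threshold at 0 of 9 spots in vehicle and 2 of 9 in alcohol, with medians of 249 and 175. It was not well above background on either array, so these data give no ratio for the locus on chromosome 13 by itself.

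The miRNAs made near Mir181c and Mir181d were also read. Of 5 probes matched by sequence to Mir23a, Mir27a or Mir24-2, 2 were called higher on the alcohol array and none lower, against 9.46% and 7.45% of all 349 probes, and 3 were detected on both arrays. After cyclic loess miR-27a had a log2 ratio of 1.84 ± 0.51 and miR-23a of 0.44 ± 0.26 (SD over 9 spots). Both were above 0, like miR-181c and miR-181d. By ratio among the 150 miRNAs detected on both arrays, miR-27a ranked 3 after cyclic loess and 3 before it, and miR-23a 27 and 65. Before normalization miR-23a was at 0.69, close to the median of 0.57 of those 150, so its standing depended on the scaling. miR-24, at 0.031 ± 0.12, was within the spread of its spots, and the mature strand can also come from a second gene elsewhere. The other two, miR-24-2* and miR-27a*, were not well above background on either array.

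Among the miRNAs detected on both arrays, the nearest to each member in log2 signal over the 2 arrays was taken as a description of likeness. It was miR-24 for miR-181a at a distance of 0.093 and miR-219-2-3p for miR-181b at 0.13. For miR-181c it was miR-148b-3p at 0.067 and for miR-181d miR-331 at 0.27. With 2 arrays this means only a like brightness on each.

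Of 5 other miRNAs known from drug studies of the striatum (let-7d, miR-9, miR-124, miR-132 and miR-212), all 5 were detected on both arrays, and 2 were called higher and 1 lower, against the same 9.46% and 7.45%. For miR-212, a neuronal miRNA induced by CREB, the ratio on the log2 scale stood at 0.51 ± 0.28 (SD over 9 spots). miR-132 and miR-124 were not called, at -0.14 ± 0.046 and 0.028 ± 0.059. The ratio of miR-132 was above 0 at 0 of 9 spot positions, so it did not share the rise of miR-212. miR-9, a neuronal miRNA, was called higher with an SD of 2.57 over 9 spots, as its dimmest vehicle spot had a density of 290 where the median was 37278. let-7d was called lower with an SD of 2.50, as its dimmest alcohol spot had a density of 176 where the median was 18606. With the median over spots the log2 ratios were 0.027 for miR-9 and -0.040 for let-7d. The median log2 ratio of the 5 was 0.028.

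The neuronal markers were bright, as in brain tissue, and other markers were mixed. Of 5 listed names of neuronal miRNAs, 3 were on the array, and miR-9, miR-124 and miR-128 were bright on both arrays. Their summed normalized signal was 62785 in vehicle and 75326 in alcohol, but 75889 and 78135 with the median over spots, which sets aside the dim miR-9 spot. The blood cell markers miR-451, miR-144 and miR-223 were not detected on either array, with summed signals of 307 and 294, close to background. Of 4 muscle markers, 1 was detected on 1 array and none was called. The liver marker miR-122 was detected at 9 of 9 spots on both arrays and called lower in alcohol, at 685 and 153, a log2 ratio of -2.16. The oligodendrocyte marker miR-338 was not detected in vehicle and was called higher in alcohol, with normalized signals of 177 and 548. Of the 2 listed oligodendrocyte names, miR-219 was not on the array under that name. Probes named for single strands of miR-219, and miR-338*, were looked up after the values had been seen. None of them was called higher after cyclic loess. miR-338* was called lower at 681 and 413, a log2 ratio of -0.72, and miR-219-2-3p was not called at 2584 and 2170, a log2 ratio of -0.25. Before normalization all 3 log2 ratios were above 0, at 2.62 for miR-338, 0.44 for miR-338* and 0.43 for miR-219-2-3p. The 150 miRNAs detected on both arrays had a median of 0.57 on that scale. miR-219-5p, like miR-338, was detected in alcohol alone, with 1 of 9 spots above the threshold in vehicle and 9 of 9 in alcohol. Its normalized signals were 144 and 145. miR-219-1-3p was detected on neither array. The part of these cell types in the miR-181 ratios was not tested.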

How the data were processed

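Single-colour arrays (LC Sciences), 1 for vehicle and 1 for alcohol, were hybridized with poly(A)-tailed, Cy3-stained small RNA of the NAc. The authors deposited the spot intensity, as mean density without background subtraction, and 1 processed intensity per probe, for which background was subtracted and the arrays normalized with a cyclic method whose tool is not given in the sources used here. The densities were corrected for background by normexp (offset 50, fitted on the foreground, as the files hold no background column) in limma 3.58.1 under R 4.3.3. Log2 values were averaged over 9 repeat spots, and cyclic loess with a span of 0.7 and 3 iterations over 349 miRNA probes brought the arrays together. All other steps used Python 3.11.15.

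With 1 array per group no p-value was computed, and the number of arrays limits the precision. SDs of ratios are over spot positions present on both arrays, and SDs of differences combine those of the probes. The members, lists, thresholds and alternatives were chosen with earlier results of these data known. The named miRNAs were the members, probes of the same name stem or seed, neighbours in RefSeq, the nearest in signal, a drug list and tissue markers. Alternatives were 18 settings and leaving out each spot position. The 3 row blocks among them, and the comparison of members 1 edit apart, were chosen after seeing the data. Background correction, averaging, cyclic loess and the signal and fold rules were run on simulated arrays. The detection rule was not part of that run. Changes were placed there in brighter probes alone, and no fading over the rows was included. Those arrays therefore cannot show how well a change is recovered for probes as dim as miR-181c and miR-181d.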

Additional observations from a re-analysis of the deposited data

How the results depend on the processing

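No paired analysis was possible because the vehicle and alcohol groups hold 1 array apiece. Without normalization between the arrays the log2 ratios of miR-181a, b, c and d were 0.40, 0.26, 1.44 and 1.85, so that miR-181b reversed, with 3 members called higher and 0 lower. With 5S rRNA scaling they were 0.70, 0.56, 1.75 and 2.15 (4 higher, 0 lower), and with calibration spike scaling 0.40, 0.27, 1.45 and 1.85 (3 higher, 0 lower). miR-181b reversed in both. Median scaling gave -0.82 for miR-181a, -0.95 for miR-181b and 0.63 for miR-181d, with 2 members lower, and 75th percentile scaling -0.57 and -0.70 for miR-181a and miR-181b, also with 2 lower. In these 5 settings, which differ by a constant, a minus b was 0.14, the c and d pair minus the a and b pair 1.32, c minus a 1.05 and d minus b 1.59. Quantile normalization gave -0.098 for miR-181a, -0.77 for miR-181b and 0.97 for miR-181d, with 1.20 between the pairs and 1.75 for d minus b. In the authors' values miR-181a was at -0.057 and miR-181c at 0.99, with 1.25 between the pairs and 1.05 for c minus a, and 0 members were called higher, since miR-181d did not reach a signal of 400. The mismatched control baseline gave 1.09 for miR-181c, 1.22 for miR-181d, 1.35 between the pairs, 1.04 for c minus a and 1.66 for d minus b, with 0 higher. Without background correction miR-181d was at 0.59 and 0 members were lower, and with the GC trend removed miR-181d was at 0.64. The call of miR-181b was lost (0 lower) with the median of spots, the last 4 spots, row blocks 2 and 3, and a 1.5-fold threshold. At 2-fold 0 were higher and 0 lower, and without the signal minimum 2 were higher. Among the row blocks, added after seeing the data, block 1 gave -0.080 for c minus a, and block 3 gave -0.051 for miR-181a and 0.91 for c minus a. The cause was not tested. Leaving out any 1 spot position kept miR-181a within 0.069 to 0.11, miR-181b within -0.43 to -0.38, miR-181c within 0.44 to 0.59 and miR-181d within 0.76 to 0.80. miR-181c lay close to the threshold on the vehicle array, and its ratio had the largest SD over spots of the 4 members, 0.46.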
